A study of Homo sapiens with 48 samples.

Results

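Clone 1 and clone 3 of AMO1 shIRE1 cells were compared before any shRNA was switched on. AMO1 is an established human line of tumor plasma cells from a plasmacytoma. Both clones carry the genotype AMO-1 IRE1 sh7,8,9, that is 3 short hairpin RNAs (shRNAs) against ERN1, the gene of IRE1, which doxycycline (Dox) induces. The libraries were chosen by their labels alone: those of shIRE1 clone 1 and of shIRE1 clone 3 at 0 h, with no treatment, 3 replicates each. This gave 6 of the 48 libraries of the series, and 15665 genes were tested between them. The labels call the replicates biological triplicates kept in flasks, and each group is 1 clone, so that p-values measure only the spread between cultures of that clone. What is particular to a clone cannot be told apart from what a single cell handed on when it was cloned. Nor can either be told apart from the state of that clone's cultures when the 0 h libraries were taken. The study's methods state for its other engineered lines that single-cell clones were picked for the most complete knockdown, and how the shIRE1 cells were made is described elsewhere by the authors. Later groups of the same clones received 0.2 µg/ml Dox for 24, 48 or 72 h, and untreated shXBP1 clones 1 and 18, which carry shRNAs against XBP1, served as a second pair of clones.

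IRE1 is a kinase and endoribonuclease in the membrane of the endoplasmic reticulum (ER). When unfolded proteins accumulate there, it splices the mRNA of XBP1 into the form that encodes XBP1s, a transcription factor for genes of protein folding, translocation and ER-associated degradation. Next to it stand ATF6, which is cut in the Golgi apparatus and raises ER chaperones, and PERK (EIF2AK3), which phosphorylates eIF2α and so favours translation of ATF4, the factor behind the amino acid and stress genes of the integrated stress response. Plasma cells secrete antibody in bulk and lean on these branches more than most cells do.

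Before knockdown 46.8% of the 15665 genes passed the test, 21.9% higher and 25.0% lower in clone 1, and the libraries of the clones did not overlap for 55.4%. Clone 3 held more ERN1 mRNA and more mRNA of nearly every measured gene of the integrated stress response. Clone 1 held more mRNA of the ER chaperones HSPA5 and CALR, of cytosolic chaperones led by HSP90AA1, of cell cycle genes and of the immediate early gene EGR1. Stretches before the start of 4 of these genes are shown because they hold a motif known for the programme that the gene belongs to. They are the 250 bases before the RefSeq start on GRCh38.p14, read 5′ to 3′ on the strand of the gene, with the motif in capitals. CHAC1, which degrades glutathione, has its window at chr15:40953221-40953470 on the plus strand and holds the C/EBP-ATF response element, TGATGNAA, on the opposite strand. HSPA5, the ER chaperone BiP, has its window at chr9:125241344-125241593 on the minus strand and holds the ER stress response element, CCAAT and CCACG with any 9 bases between them. CALR, the ER lectin chaperone calreticulin, has its window at chr19:12938359-12938608 on the plus strand and holds the same element on the opposite strand. HSP90AA1, the inducible cytosolic HSP90, has its window at chr14:102087045-102087294 on the minus strand and holds a heat shock element, GAA, TTC and GAA with any 2 bases between each, on the opposite strand.
CHAC1: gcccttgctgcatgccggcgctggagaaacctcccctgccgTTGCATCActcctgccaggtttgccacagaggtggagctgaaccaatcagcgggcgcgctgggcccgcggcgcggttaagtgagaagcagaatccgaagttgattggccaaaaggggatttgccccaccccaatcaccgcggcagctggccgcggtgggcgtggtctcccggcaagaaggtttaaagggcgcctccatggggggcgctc
HSPA5: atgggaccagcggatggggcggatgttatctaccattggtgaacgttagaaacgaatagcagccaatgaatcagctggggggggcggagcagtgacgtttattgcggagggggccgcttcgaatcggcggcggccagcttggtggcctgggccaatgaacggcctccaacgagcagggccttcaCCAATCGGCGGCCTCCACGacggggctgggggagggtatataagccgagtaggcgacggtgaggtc
CALR: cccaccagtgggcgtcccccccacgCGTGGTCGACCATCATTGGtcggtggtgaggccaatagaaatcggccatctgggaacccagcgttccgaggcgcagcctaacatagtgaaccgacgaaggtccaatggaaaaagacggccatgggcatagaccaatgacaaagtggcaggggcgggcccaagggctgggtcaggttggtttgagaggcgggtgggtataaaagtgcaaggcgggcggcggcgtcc
HSP90AA1: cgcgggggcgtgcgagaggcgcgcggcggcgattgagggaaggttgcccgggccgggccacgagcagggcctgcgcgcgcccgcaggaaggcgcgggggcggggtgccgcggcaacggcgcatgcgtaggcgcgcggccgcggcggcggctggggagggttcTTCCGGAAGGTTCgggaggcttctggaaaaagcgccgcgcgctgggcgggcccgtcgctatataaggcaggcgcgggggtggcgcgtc

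All windows of the table, 27305 genes in all, were searched on both strands for the same 3 motifs. Each motif was counted on its own and once a gene, since matches of one motif can overlap. The C/EBP-ATF element was in 3.89% of all genes and in 5 of the 22 measured genes of the integrated stress response that had a window, namely CHAC1, ASNS, ATF3, CEBPG and SLC1A5. All 5 were higher in clone 3, though ASNS had few reads counted in either clone. The ER stress element was in 0.0916% of all genes and in 7 of 24 ER chaperone genes, of which 6 (CANX, PDIA6, HSP90B1, CRELD2, CALR and HSPA5) were higher in clone 1 and 1 (ERO1B) was higher in clone 3. The heat shock element was in 0.557% of all genes and in 6 of 34 heat shock genes (DNAJB6, HSPD1, HSPA8, HSP90AB1, CHORDC1 and HSP90AA1), all higher in clone 1. The whole lists leaned the same way. Of 28 integrated stress response genes 26 were lower in clone 1 and 0 higher. ER chaperone genes were higher for 15 and lower for 9 of 25, and heat shock genes for 25 and 3 of 40. Over all genes tested 21.9% were called higher and 25.0% lower. The direction of the motif carriers is thus no result about the motif, and a link between them was not tested. A match is a run of letters in the reference and no measure of binding.

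Levels are CPM, counts scaled to the library total, after TMM scaling over all 48 libraries, and differences are log2 values, clone 1 minus clone 3, ± SE. The 6 libraries held between 23300589 and 34569637 counts and between 13160 and 13330 genes at 1 CPM or more, and 1 count was worth at most 0.0429 CPM. Mitochondrial genes took 4.07 to 4.17% of the counts in clone 1 and 2.9 to 3.83% in clone 3. All 10 plasma cell markers were read in both clones, with a summed level of 15393 to 17189 CPM in clone 1 and 18386 to 20109 CPM in clone 3. B cell, T cell, NK cell, myeloid, erythroid, fibroblast, epithelial and endothelial markers summed to at most 14.4 CPM a list in any library, and PAX5 and CD22 had no count in any of the 6.

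Some later libraries go against their labels. A total of 10 genes were at least 1.5 apart on the log2 scale between the clones, in the same direction, in both the 0 h and the 24 h libraries (among them TENM3, LAMB4 and AC023824.7 higher in clone 1 and BTK, WAS, TLR7, ARHGEF6, HBE1 and TMEM132D-AS1 higher in clone 3). This rule was set after values were seen. On a scale where 0 is the level of clone 3 and 1 that of clone 1, the median of the 10 genes was 0.901 to 1.06 in the 0 and 24 h libraries of clone 1 and -0.0512 to 0.0488 in those of clone 3. It was -0.0257 to 0.0309 in the 3 libraries labelled clone 1, 72 h, and 1.11 to 1.16 in the 3 labelled clone 3, 48 h. TLR7, for example, stood at 1.66 CPM in clone 1 and 18.3 CPM in clone 3 at 0 h, at 23.7 CPM in the libraries labelled clone 1, 72 h, and at 2.74 CPM in those labelled clone 3, 48 h. The 0 and 24 h libraries chose the genes and are not tested by them. No library of 48 or 72 h enters the comparison of the untreated clones, and no direction is drawn from those times.

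**Figure D1:**
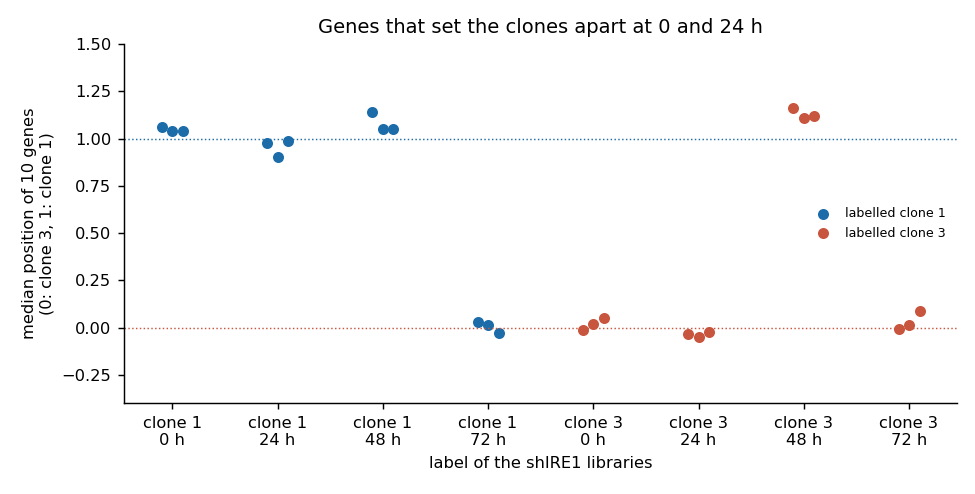
Median position of the 10 genes that set the shIRE1 clones apart at 0 and 24 h (vertical axis: 0 is the mean log2 level of clone 3, 1 that of clone 1) in each of the 24 shIRE1 libraries by label (horizontal axis). The libraries labelled clone 1, 72 h sit at -0.0257 to 0.0309 with clone 3, and those labelled clone 3, 48 h sit at 1.11 to 1.16 with clone 1.

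ERN1 stood at 153, 150 and 154 CPM in the libraries of clone 1 and at 421, 451 and 441 CPM in those of clone 3. The groups were far apart, and the difference was -1.53 ± 0.0507 (adjusted p = 1.30e-08, edgeR's quasi-likelihood test with Benjamini-Hochberg adjustment, as for all adjusted p-values here). XBP1, the substrate of IRE1, stood at 184, 178 and 175 CPM in clone 1 and at 245, 205 and 200 CPM in clone 3. The groups did not overlap, but the difference was smaller, -0.29 ± 0.0708 (adjusted p = 0.00662), and was -0.18, still past the test, without clone 3 replicate 1. Gene counts do not tell spliced from unspliced XBP1.

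Differences of the other sensors were smaller in size. EIF2AK3, the gene of PERK, stood at 161 ± 6.15 CPM (SD, n = 3) in clone 1 and at 205 ± 5.77 CPM in clone 3 (-0.36 ± 0.0503, adjusted p = 1.75e-04). ATF6 was measured at 234 ± 7.15 and 253 ± 6.15 CPM, which did not pass the test (adjusted p = 0.0597, with 0.0345 to 0.0492 in 3 other settings). Of 19 measured members of the list of IRE1 and its sensors, 5 were higher and 8 lower in clone 1 (all genes: 21.9% and 25.0%). Among those lower in clone 1 was TXNIP, an inhibitor of thioredoxin, at 331 ± 21.2 against 579 ± 27.6 CPM.

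Genes that IRE1 is best known to act on went both ways. XBP1s targets were higher in clone 1 for 8 and lower for 22 of 49 members, with a median of -0.10, where 21.9% of all genes tested were called higher in clone 1, 25.0% were called lower and the median was -0.02. Those lower in clone 1 were led by EDEM1, which draws misfolded glycoproteins into degradation, at 272, 255 and 258 CPM against 757, 759 and 738 CPM (-1.53 ± 0.0474, adjusted p = 7.73e-09). DNAJB9, the ER co-chaperone ERdj4, followed at 40.2, 40.7 and 40.7 against 89.0, 73.0 and 76.5 CPM (-0.98 ± 0.0734, adjusted p = 2.58e-06). HERPUD1, a part of the ER degradation complex, stood at 518 ± 13.8 against 870 ± 70.3 CPM and ARFGAP3, of Golgi vesicle traffic, at 39.5 ± 1.07 against 69.3 ± 1.51 CPM. The 8 members higher in clone 1 were PDIA6, PDIA4, DNAJB11, DNAJC3, CRELD2, HYOU1, FKBP14 and SDF2L1, which fold proteins in the ER lumen, by 0.29 to 0.75. Transcripts that IRE1 can cut by regulated decay were split as well, with 2 of 7 higher in clone 1 (CD59 and DGAT2) and 3 lower (HGSNAT, BLOC1S1 and ERGIC3).

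ER chaperones and ATF6 targets were higher in clone 1 for 15 of 25 members and lower for 9, with a median of 0.18. Over all genes tested 21.9% were called higher and 25.0% lower. HSPA5 stood at 1749, 1788 and 1764 CPM in clone 1 and at 753, 788 and 816 CPM in clone 3 (1.16 ± 0.0485, adjusted p = 5.82e-08). CALR stood at 2146, 2224 and 2197 CPM against 1017, 1056 and 1077 CPM (1.05 ± 0.0469, adjusted p = 8.11e-08). Every library of clone 1 was above every library of clone 3 for both. PDIA3, a disulfide isomerase that works with calreticulin, was apart by 0.55 and HSP90B1, the ER form of HSP90, by 0.36. The 9 lower in clone 1 included EDEM1, HERPUD1, SEL1L and OS9, which serve the removal of misfolded proteins, and TXNDC5, a disulfide isomerase whose difference of -0.86 came to -0.42 without clone 3 replicate 1. TXNDC5 overlaps other annotated genes, so that its reads are uncertain.

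The integrated stress response was higher in clone 3. Of 28 measured members 26 were lower in clone 1 by edgeR and 25 by DESeq2, and 0 were higher by either tool or at an unadjusted p under 0.05, with a median of -0.80, and 9 were at least 2-fold apart where 3.79% of all genes were called at least 2-fold lower in clone 1. ATF4 itself stood at 198, 192 and 200 CPM in clone 1 and at 322, 281 and 280 CPM in clone 3 (-0.59 ± 0.0605, adjusted p = 2.05e-05). DDIT3, the gene of CHOP, stood at 24.6, 23.8 and 24.6 CPM against 89.6, 81.8 and 80.6 CPM (-1.79 ± 0.0626, adjusted p = 1.46e-08). The groups were well separated for both, though DDIT3 overlaps other annotated genes.

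Larger differences were seen in targets of ATF4. CHAC1 stood at 5.93, 6.85 and 6.71 CPM in clone 1 and at 51.8, 44.3 and 49.6 CPM in clone 3 (-2.90 ± 0.0905, adjusted p = 7.73e-09). DDIT4, an inhibitor of mTORC1, stood at 21.1, 21.8 and 24.5 CPM against 182, 172 and 226 CPM (-3.11 ± 0.107, adjusted p = 1.36e-08). CTH, which makes cysteine from cystathionine, stood at 12.7, 11.5 and 11.3 CPM against 66.7, 70.2 and 65.0 CPM (-2.52 ± 0.0707, adjusted p = 7.47e-09). None of the 3 showed overlap between the clones. SESN2, SLC7A11 (the cystine importer), TRIB3, ALDH1L2 and CEBPB were apart by 1.15 to 1.54, all lower in clone 1. The serine and one-carbon enzymes PSAT1, PSPH, PHGDH, SHMT2 and MTHFD2 were apart by 0.55 to 0.84, again lower in clone 1. ASNS, asparagine synthetase and a usual member of this programme, had few reads counted in both clones, at 0.428 ± 0.158 and 0.811 ± 0.169 CPM. The study's methods for a related experiment count only reads that map unambiguously. Whether reads of ASNS were lost in this way was not tested, so that its mRNA level stays uncertain. The 2 members that did not pass the test were SLC7A5 (adjusted p = 0.830) and ATF5 (adjusted p = 0.558).

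**Figure D2:**
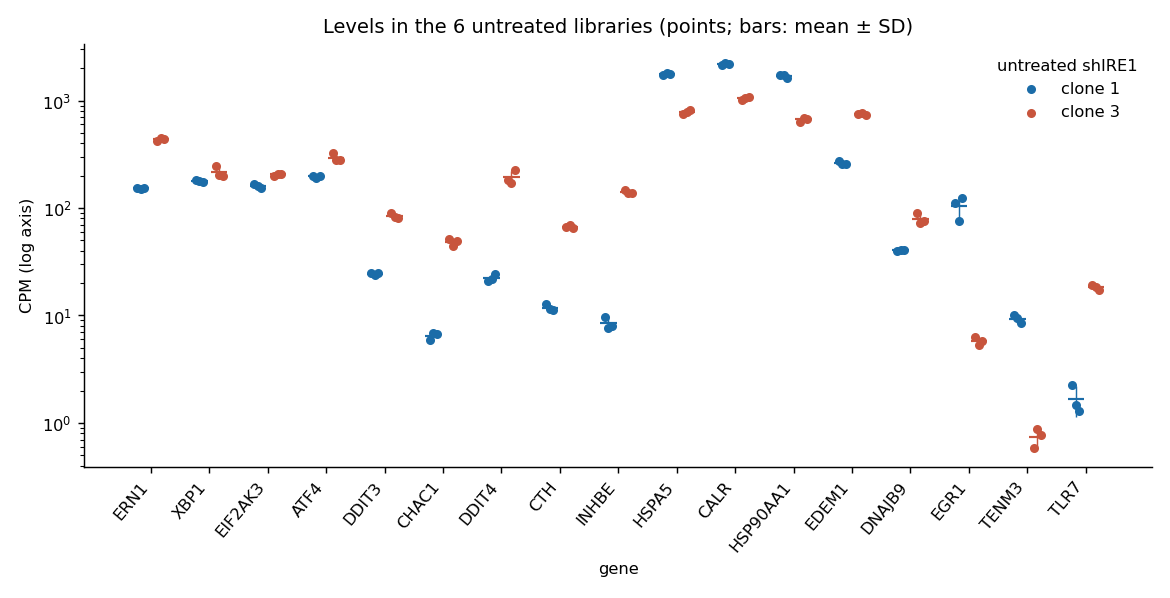
CPM on a log axis of 17 genes (horizontal axis) in the 3 libraries of untreated shIRE1 clone 1 (blue points) and the 3 of clone 3 (red points), with bars for the mean ± SD. ERN1, the genes from EIF2AK3 to INHBE, EDEM1, DNAJB9 and TLR7 sit higher in clone 3, whereas HSPA5, CALR, HSP90AA1, EGR1 and TENM3 sit higher in clone 1.

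Cytosolic and mitochondrial heat shock genes were a list added after the values were seen. Beside 21.9% of all genes tested called higher and 25.0% called lower, 25 of 40 members were higher in clone 1 and 3 lower. Their median was 0.33. HSP90AA1 led them at 1743, 1746 and 1627 CPM against 638, 687 and 679 CPM (1.35 ± 0.0507, adjusted p = 3.11e-08). HSPH1, a nucleotide exchange factor for HSP70, stood at 358, 359 and 326 CPM against 157, 154 and 156 CPM (1.15 ± 0.0508, adjusted p = 8.11e-08). Both groups were tight. DNAJA1, a co-chaperone of HSP70, was apart by 1.01 and HSP90AB1, the constitutive HSP90, by 0.78. HSPA1B, an inducible HSP70 gene with a near-identical copy that makes its reads uncertain, went the other way, at 5.80 ± 0.564 CPM in clone 1 and 18.9 ± 4.11 CPM in clone 3.

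Immediate early and growth factor response genes were also a list added after the values were seen. They were higher in clone 1 for 12 and lower for 8 of 33 members. The shares over all genes tested were 21.9% and 25.0%. EGR1, a zinc finger factor made within minutes of a growth signal, stood at 112, 76.4 and 125 CPM in clone 1 and at 6.36, 5.29 and 5.74 CPM in clone 3 (4.16 ± 0.181, adjusted p = 7.89e-08). FOS stood at 8.26, 6.64 and 10.8 CPM against 1.73, 1.67 and 1.86 CPM (2.27 ± 0.199, adjusted p = 7.27e-06). Both were above every library of clone 3 in every library of clone 1, with a wider spread in clone 1. ID2, an inhibitor of basic helix-loop-helix factors, stood at 20.9 ± 0.736 against 5.21 ± 0.628 CPM, and TRIB1 was apart by 1.16. IER2 (adjusted p = 0.284), NR4A1 (adjusted p = 0.593) and JUNB (adjusted p = 0.285) did not pass the test. BTG2, an antiproliferative gene, was lower in clone 1 at 119 ± 2.94 against 411 ± 21.6 CPM (-1.79 ± 0.0548, adjusted p = 7.73e-09).

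Over all genes, 7339 passed the test, with 3429 (21.9%) higher and 3910 (25.0%) lower in clone 1. Each count of list members is to be read beside these shares. Most differences were small. A total of 901 genes (5.75%) were called at least 2-fold apart, 308 higher (1.97%) and 593 lower in clone 1, and at least 8-fold apart were 9 higher and 13 lower. Among genes with a mean of at least 100 CPM, 1641 of 2536 were called, 990 higher and 651 lower in clone 1, with a median of 0.06. Of these, 37 were at least 2-fold apart, 8 of them higher in clone 1. Abundant genes were thus called more often than all genes tested.

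**Figure D3:**
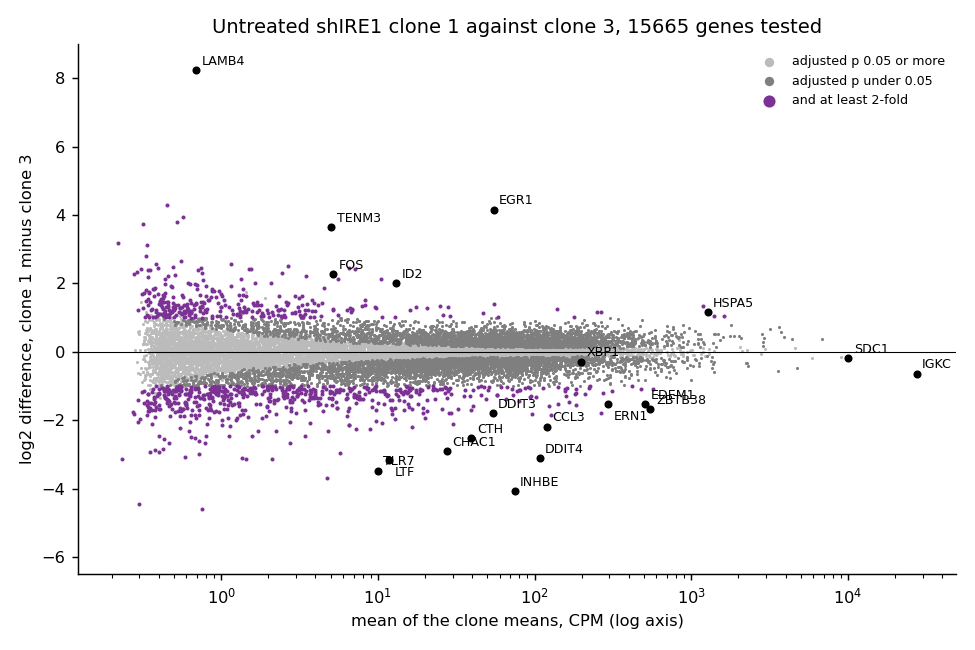
Log2 difference, clone 1 minus clone 3 (vertical axis), against the mean of the clone means in CPM (log horizontal axis) for the 15665 genes tested, with genes at an adjusted p under 0.05 in dark grey and those also at least 2-fold apart in purple. INHBE, DDIT4 and TLR7 lie lowest among the named genes, EGR1 and TENM3 high, and IGKC and SDC1 far right near 0. The point of LAMB4 is a fitted value against counts of 0 in clone 3.

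The next genes are among the protein-coding genes with the largest differences at 1 CPM or more in each clone. INHBE, which encodes the activin E subunit made mainly by the liver, led those lower in clone 1 at 9.64, 7.58 and 8.05 CPM against 146, 138 and 138 CPM (-4.07 ± 0.0821, adjusted p = 3.92e-10). Its neighbour INHBC was apart by -2.33. After INHBE came TLR7, an endosomal sensor of single-stranded RNA (-3.48), LTF, the iron binding protein lactoferrin (-3.15), DDIT4 (-3.11), PXDN, a peroxidase of the extracellular matrix (-2.97), CHAC1 (-2.90), CTH (-2.52) and SCN4A, a sodium channel (-2.26). All of those named had an adjusted p of 5.51e-07 or less, and in none of them did the clones overlap.

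After EGR1 and FOS, the genes higher in clone 1 were SGPP2, a sphingosine-1-phosphate phosphatase (2.23), DHRS2, a dehydrogenase (2.13), ID2 (2.0), MTSS1, an actin regulator (1.87), ZNF583 (1.58), NAPRT, which makes NAD from nicotinic acid (1.5), PRRG3 (1.47) and ZNF530 (1.42). Their means in clone 1 ran from 3.84 to 20.9 CPM, beside 104 CPM for EGR1. NAPRT had the widest spread among them, at 4.21, 5.51 and 7.07 CPM in clone 1 and at 1.34, 2.51 and 2.12 CPM in clone 3.

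Among the most abundant genes at least 2-fold apart, TFRC, the transferrin receptor, stood beside HSPA5, CALR and HSP90AA1 as higher in clone 1, at 1959, 1901 and 1815 CPM against 864, 967 and 913 CPM. ZBTB38, a zinc finger protein that binds methylated DNA, was lower in clone 1 at 290, 243 and 253 CPM against 748, 897 and 866 CPM (-1.68 ± 0.0817, adjusted p = 1.27e-07). Also lower in clone 1 were EDEM1, NFE2L1 (-1.09), the factor that raises proteasome genes, SQSTM1 (-1.10), the autophagy receptor p62, INSIG1 (-1.01), which holds back sterol synthesis, and ALDH1L2 (-1.15), a mitochondrial folate enzyme. The proteasome genes were higher in clone 1 for 17 of 30 members and lower for 0 by edgeR, by DESeq2 and at an unadjusted p under 0.05, led by PSMB2, a subunit of the core particle, at 0.53. Their median was 0.15. Over genes with a mean of at least 100 CPM, 990 of 2536 were called higher in clone 1 and the median was 0.06.

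Genes of the cell cycle were higher in clone 1 in small steps. Of 43 S phase genes 31 were higher in clone 1 and 2 lower (WDR76 and MCM6), with a median of 0.31. Over all genes tested 21.9% were called higher and 25.0% lower. MCM4, a subunit of the replicative helicase, stood at 597 ± 17.4 against 351 ± 3.8 CPM (0.76), and GMNN, the licensing inhibitor geminin, at 81.5 ± 2.88 against 47.9 ± 4.24 CPM (0.76). Of 52 G2/M genes 36 were higher and 1, CBX5, lower, with a median of 0.28. CDC20, the activator of the anaphase promoting complex, led them at 138 ± 7.20 against 76.8 ± 2.71 CPM (0.84). None of either list was called 2-fold apart. G1 regulators were higher in clone 1 for 10 of 24 and lower for 3, which were the CDK inhibitors CDKN1B (-0.76) and CDKN2B (-0.51) and the pocket protein RBL2 (-0.87). MYC stood at 1724 ± 52.9 CPM in clone 1 and at 1351 ± 83.5 CPM in clone 3 (0.35 ± 0.0548, adjusted p = 4.16e-04), and E2F1 at 61.2 ± 1.63 and 64.8 ± 4.23 CPM (adjusted p = 0.261). Of the 25 p53 targets 11 were higher and 6 lower, the latter led by BTG2 and SESN2. DNA methylation and chromatin genes were higher for 11 and lower for 5 of 28, with DNMT3B at 0.73 and TET1 at -0.93.

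Mitochondrially encoded genes were higher in clone 1 for 9 of 13 and lower for 0 by edgeR, by DESeq2 and at an unadjusted p under 0.05, with a median of 0.38. MT-ND1, a subunit of complex I, stood at 3880, 3876 and 3911 CPM in clone 1 and at 2963, 2332 and 2000 CPM in clone 3. The libraries of clone 3 were spread widely here and those of clone 1 hardly at all. The share of mitochondrial counts moves with this list, and its part in the difference was not tested.

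Plasma cell genes differed by modest amounts. Of 24 identity genes 5 were higher and 14 lower in clone 1, with a median of -0.23. IRF4, the master factor of plasma cells, stood at 1362, 1270 and 1270 CPM in clone 1 and at 1437, 1448 and 1385 CPM in clone 3, without overlap (-0.14 ± 0.0471, adjusted p = 0.0334). This call was lost in 7 of 13 other settings, where the adjusted p ran up to 0.238. PRDM1, the gene of BLIMP1, was higher in clone 1 (0.30), as were IKZF1 (0.47) and FCRL5 (0.52), whereas IKZF3 (-0.36), CD38 (-0.36), CD28 (-1.30) and TNFRSF17, the gene of BCMA (-0.61), were lower. SDC1, syndecan-1, ran from 8461 to 10550 CPM in clone 1 and from 9855 to 11918 CPM in clone 3 with overlap, and did not pass the test (adjusted p = 0.127, with 1.68e-04 to 0.0497 in 4 other settings). The light chain gene IGKC stood at 21387, 21821 and 21393 CPM against 37144, 30598 and 32240 CPM (-0.64 ± 0.0643, adjusted p = 1.86e-05), with reads that may be shared among immunoglobulin genes. The joining chain JCHAIN was apart by -0.56.

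Surface and immune genes leaned to clone 3. Myeloma surface antigens were lower in clone 1 for 12 of 19 and higher for 2 (CD44 and FCRL5), with a median of -0.36. Among them LILRB4, an inhibitory receptor, was apart by -1.33, SLAMF7 by -1.02 and ITGB7 by -1.01. MHC class I and peptide loading genes were lower for 9 of 17 and higher for 2, with HLA-E at 102 ± 3.57 against 168 ± 5.11 CPM and B2M at -0.41. HLA genes are alike in sequence, so that short reads may be shared among them. MHC class II genes were lower for 8 of 16 and higher for 2. Interferon-stimulated genes were lower for 9 of 20 and higher for 3, led by OASL (-1.71), IFIT2 (-1.70) and the exonuclease ISG20 (-1.16), all at low levels, and STAT2, a signal carrier of the interferon receptors, stood at -0.96. Chemokines, cytokines and receptors were lower for 10 of 21 and higher for 3. CCL3, a chemokine that myeloma cells are known to secrete, stood at 41.2, 38.2 and 50.8 CPM against 216, 182 and 195 CPM (-2.19 ± 0.103, adjusted p = 1.11e-07).

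Sterol and fatty acid genes were lower in clone 1 for 16 of 32 and higher for 4, with FADS1, a fatty acid desaturase, at -1.20 and ACSS2, acetyl-CoA synthetase, at -1.24. The BCL2 family was lower in clone 1 for 7 of 16 and higher for 3. The anti-apoptotic BCL2 stood at 252 ± 14.1 against 456 ± 23.3 CPM (-0.86) and MCL1 was apart by -0.34, while the pro-apoptotic BMF stood at 6.93 ± 1.00 against 22.4 ± 1.19 CPM (-1.69).

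The remaining lists are given by their counts, beside 21.9% of all genes tested called higher in clone 1 and 25.0% called lower. Members called higher and lower in clone 1 were 4 and 6 of 14 for B-cell identity, 1 and 3 of 8 for immunoglobulin constant and assembly genes, 7 and 12 of 25 for integrins and adhesion, and 7 and 10 of 24 for NF-kB. They were 10 and 9 of 27 for glycolysis and hypoxia, 9 and 4 of 23 for antioxidant and NRF2 genes, 4 and 6 of 16 for nucleic acid sensors, and 8 and 1 of 14 for cancer-testis antigens, a family of near-identical copies. They were 3 and 6 of 13 for imprinted genes, 4 and 2 of 11 for protocadherins and neuronal adhesion, 1 and 1 of 15 for homeobox genes, and 2 and 0 of 2 for metallothioneins. PEG10, an imprinted gene of retrotransposon origin, was higher in clone 1 at 639 ± 18.9 against 331 ± 23 CPM (0.94).

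**Figure D4:**
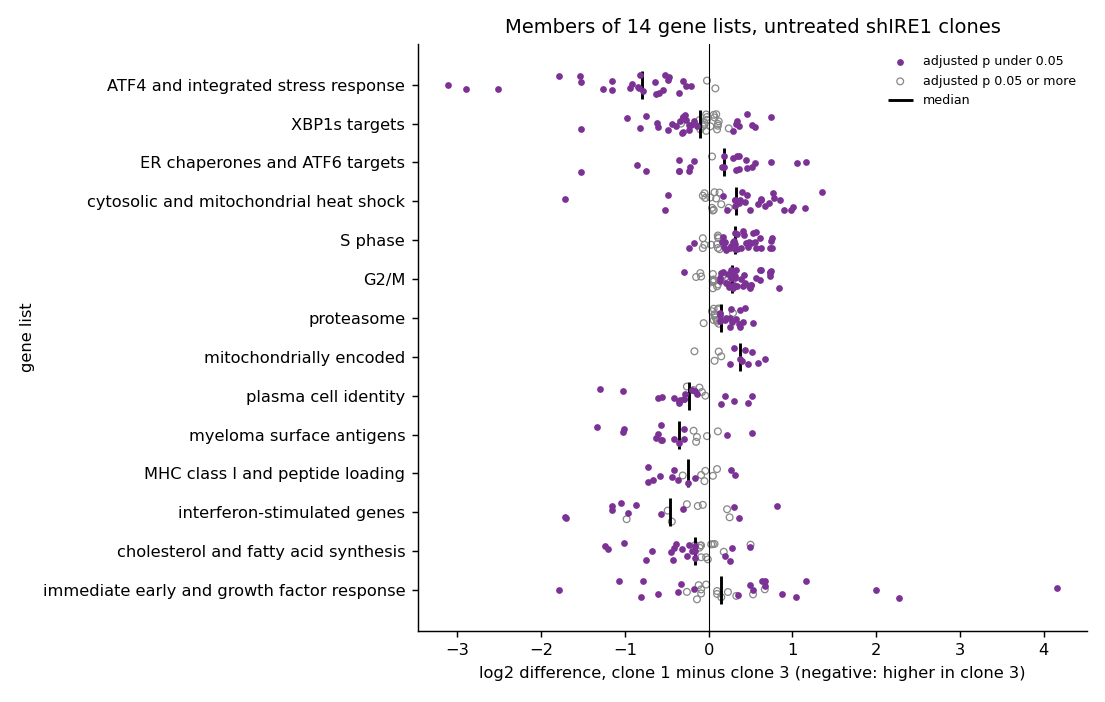
Log2 difference, clone 1 minus clone 3 (horizontal axis), of each measured member of 14 gene lists (rows), with filled points for an adjusted p under 0.05, open points for the others and a black bar for the list median. The integrated stress response lies left of 0 with a median of -0.80, and the heat shock, S phase, G2/M, proteasome and mitochondrially encoded lists lie mainly right of it.

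No gene was silent in one clone and well expressed in the other. None had a mean of at least 5 CPM in one clone and less than 0.1 CPM in every library of the other, and 1, TRPM8, a cold-sensing ion channel, was at least at 2 CPM (2.43 ± 0.504 CPM in clone 3) against less than 0.3 CPM (0.279 ± 0.0139 CPM in clone 1). LAMB4, a laminin subunit picked after its values were seen, had 121 counts over the 3 libraries of clone 1 (1.76, 1.16 and 1.21 CPM) and 0 counts over those of clone 3. Taking the limit of 3 counts over the group, which is 0.0385 CPM, LAMB4 was at least 35.7-fold higher in clone 1. In clone 1 it rose to 34.2, 39.0 and 39.5 CPM after 24 h of Dox (4.78 ± 0.124, adjusted p = 2.86e-15), while clone 3 again had no count.

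Fewer genes were called at 24 h of Dox. Of 16577 genes tested there, 220 (1.33%) were called, 0.633% higher and 0.694% lower in clone 1, and 4691 of 16917 (27.7%, with 12.5% higher and 15.2% lower) without clone 3 replicate 1, a library that stands apart from its group. Of the 901 genes at least 2-fold apart at 0 h, 845 were tested at 24 h, and 62 (7.34%) were called in the same direction and 3 in the opposite one. Their median difference, taken in the direction seen at 0 h, was 1.28 at 0 h and 0.11 at 24 h. Without clone 3 replicate 1 these counts came to 181 and 25 of 860, and the median at 24 h to 0.10. The 24 h libraries shared none with those at 0 h. The 901 genes were chosen by their difference at 0 h, so that some narrowing at 24 h is built in.

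ERN1 was among the genes with a smaller gap. In clone 1 it went from 152 ± 2.38 to 127 ± 1.63 CPM (-0.28 ± 0.0465, adjusted p = 4.74e-05) and in clone 3 from 438 ± 15.4 to 145 ± 1.32 CPM (-1.60 ± 0.0596, adjusted p = 7.03e-08). Both changes share the 0 h libraries with the comparison of the untreated clones. At 24 h the clones differed by -0.19 ± 0.0521 (adjusted p = 0.0830, or 0.00739 without clone 3 replicate 1). The change of the gap was 1.31 ± 0.0669 (adjusted p = 2.78e-09), in a test added after the data were seen. For XBP1 the change of the gap was 0.22 ± 0.0877 and did not pass the test (adjusted p = 0.0721).

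Named stress genes of both kinds lay closer together at 24 h. EGR1, DDIT4 and CHAC1 had been named for large differences at 0 h, so that some narrowing is built in for them. HSPA5 fell in clone 1 from 1767 ± 19.5 to 722 ± 12.3 CPM, near its untreated level in clone 3, and in clone 3 to 625 ± 2.52 CPM. HSP90AA1 fell in clone 1 to 377 ± 6.54 and in clone 3 to 312 ± 24.6 CPM. EGR1 fell in clone 1 to 30.6 ± 0.529 CPM and rose in clone 3 to 33.5 ± 1.64 CPM (2.52 ± 0.0950, adjusted p = 7.03e-08). DDIT4 rose in clone 1 to 63.5 ± 2.68 CPM and fell in clone 3 to 90.8 ± 3.33 CPM. CHAC1 fell in clone 3 to 12.2 ± 1.96 CPM. In the integrated stress response 5 of 28 genes were still called lower in clone 1 at 24 h and 0 higher by edgeR (17 and 0 without clone 3 replicate 1), with a median of -0.19. INHBE was still apart by -1.09 ± 0.0923 (adjusted p = 4.60e-05).

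Other genes were picked for being apart at both times. TENM3, a teneurin of cell adhesion, stood at 10.2, 9.38 and 8.51 CPM in clone 1 and at 0.589, 0.881 and 0.768 CPM in clone 3 at 0 h (3.64 ± 0.162, adjusted p = 8.11e-08), and was apart by 3.30 ± 0.150 at 24 h. TLR7 stood at 2.26, 1.46 and 1.28 CPM against 19.2, 18.5 and 17.1 CPM at 0 h and was apart by -2.99 ± 0.122 at 24 h. BTK, a kinase of the B-cell receptor pathway, stood at 5.66, 4.93 and 5.07 CPM against 20.7, 20.9 and 19.5 CPM at 0 h (-1.97 ± 0.0908, adjusted p = 9.80e-08) and was apart by -1.67 ± 0.0857 at 24 h. WAS, a regulator of actin in blood cells, was apart by -1.74 at both times. The embryonic globin gene HBE1, which overlaps several annotated genes, was apart by -3.68 and -2.64. Their gap at 24 h is therefore given with no test.

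**Figure D5:**
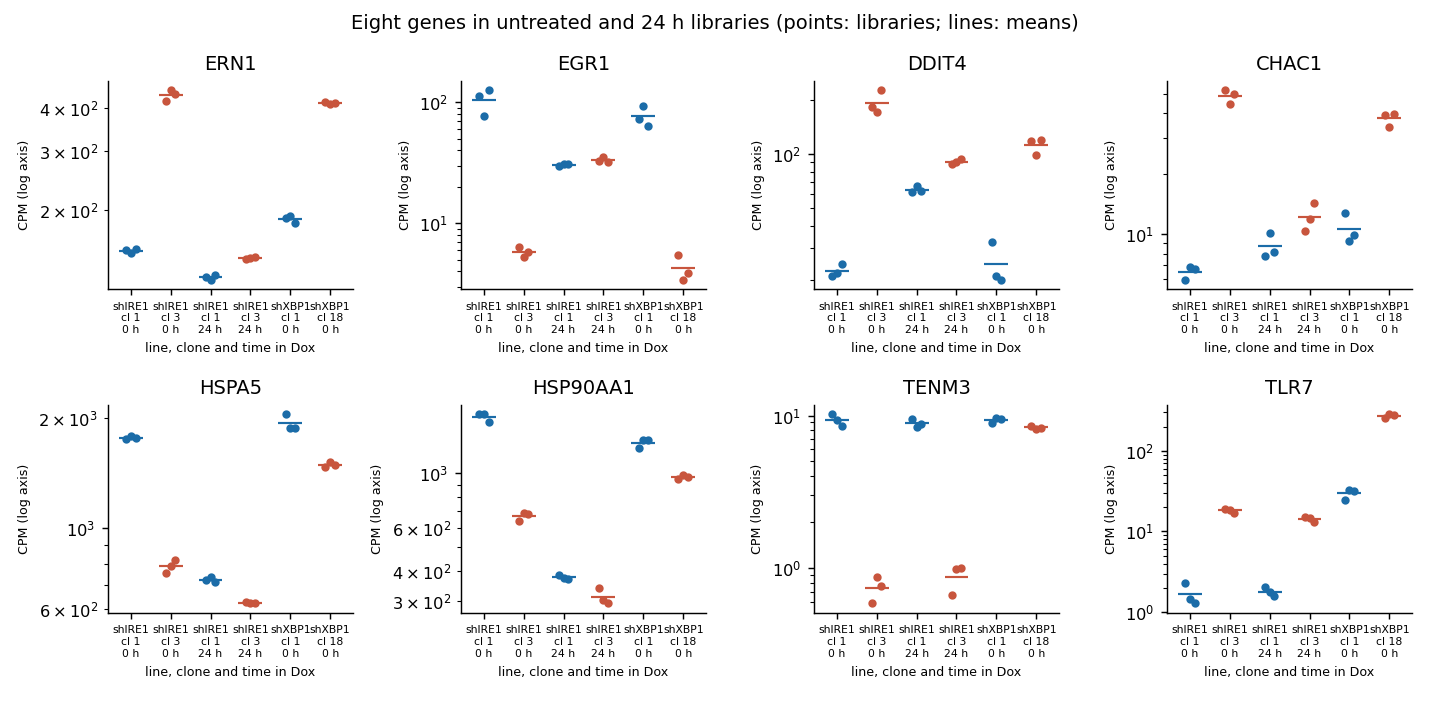
CPM on log axes of 8 genes in single libraries (points) with group means (lines), for shIRE1 clone 1 and clone 3 at 0 and 24 h of Dox and for untreated shXBP1 clone 1 and clone 18 (blue: clone 1 of either line, red: clone 3 or clone 18). ERN1, EGR1, DDIT4, CHAC1, HSPA5 and HSP90AA1 lie closer together between the shIRE1 clones at 24 h than at 0 h, and TENM3 and TLR7 keep their gap.

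The untreated shXBP1 clones, which share no library with the shIRE1 clones, differed in many of the same genes. Between shXBP1 clones 1 and 18, 8159 of 16008 genes (51.0%) were called, 24.8% higher and 26.2% lower in clone 1, and 1876 (11.7%) were at least 2-fold apart, 4.44% higher and 7.28% lower. Of 15294 genes tested in both pairs, 834 were called at least 2-fold apart between the shIRE1 clones and 1583 between the shXBP1 clones, and 466 in both, which is 55.9% of the former and 29.4% of the latter. With shXBP1 clone 1 set beside shIRE1 clone 1, 446 of these 466 (95.7%) had the same direction. Of the 4825 genes called in both pairs at any size, 4453 (92.3%) did. The order of the shXBP1 clones follows their label numbers and not their levels.

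ERN1 was 188 ± 4.46 CPM in shXBP1 clone 1 and 414 ± 3.96 CPM in shXBP1 clone 18 (-1.13 ± 0.0425, adjusted p = 8.32e-07), beside 152 and 438 CPM in shIRE1 clones 1 and 3. EGR1 was 76.4 ± 14.6 against 4.25 ± 1.05 CPM, DDIT4 24.5 ± 6.99 against 112 ± 11.9 CPM, CHAC1 10.6 ± 1.83 against 37.6 ± 3.11 CPM, ZBTB38 323 ± 36 against 1051 ± 20.1 CPM and CCL3 39.8 ± 7.59 against 413 ± 21.3 CPM. All 5 passed the test in the direction seen between the shIRE1 clones. Cell cycle genes did as well, with 37 of 43 S phase and 41 of 52 G2/M genes higher in shXBP1 clone 1.

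HSPA5 was higher in shXBP1 clone 1 by 0.38 and CALR by 0.36. ER chaperones and ATF6 targets were higher in shXBP1 clone 1 for 5 and lower for 14 of 25, and XBP1s targets for 5 and 31 of 49. Integrated stress response genes were lower for 15 and higher for 3 of 28, with a median of -0.21, and ATF4 did not pass the test (adjusted p = 0.918). Interferon-stimulated genes were lower in shXBP1 clone 1 for 16 of 20, with a median of -1.23. TENM3 was 9.35 ± 0.382 and 8.36 ± 0.192 CPM and did not pass the test (adjusted p = 0.123). DHRS2 and HSPH1 had the opposite direction (-1.23 and -0.52), with DHRS2 at 8.04 ± 0.403 against 19 ± 1.36 CPM. Whether the difference itself differs between the pairs was not tested for these genes.

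The differences were spread over the genome. Among 13181 genes with a mean of at least 1 CPM, chromosome medians ran from -0.05 to 0.04, and between 46.9 and 56.9% of the genes of a chromosome were called. A running median over 41 neighbouring genes left the range of ±0.3 in 6 stretches with 46 genes in all. The longest, 25 genes from C19orf68 to BAX on chromosome 19, reached -0.34. On chromosome 12 the stretches from SHMT2 to STAC3 (3 genes) and from PIP4K2C to AGAP2 (7 genes) each reached -0.35. DDIT3, INHBE and INHBC lie on the same chromosome. Over genes of at least 10 CPM, or over 81 genes, no stretch left the range of ±0.3. Gene order was taken from GENCODE 44.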

How the data were processed

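The authors counted 50-base single-end reads of stranded, poly(A)-selected libraries per gene and deposited raw counts for 48 libraries, with 0 columns that match no sample. Their deposited log2 table holds log2 CPM with a prior count of 2 and was used in 1 alternative. The submitters' processing notes name GSNAP, R 4.1.3, edgeR 3.32.1, limma 3.46.0 and GRCh37/hg19, while the methods name GRCh38 for a related experiment, so that no coordinates of the counted genes are printed; the promoter windows and their coordinates are those of RefSeq on GRCh38.p14. Use of strand in counting is not given in the sources used here. Sample titles give the later times as days and the treatment labels as hours, and hours were used.

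Counts of the 6 untreated shIRE1 libraries were tested with the quasi-likelihood test of edgeR 4.0.16 (R 4.3.3) after filterByExpr (minimum count 10, total 15) and TMM scaling, with Benjamini-Hochberg adjustment over all genes kept and a threshold of 0.05. Genes past it are called higher or lower. The 24, 48 and 72 h and the shXBP1 comparisons were fitted in the same way. Levels are CPM (mean ± SD, n = 3). The SE of a difference comes from this fit and includes the spread between cultures of a clone. The limit given for LAMB4 covers counting error only. Alternatives were RLE scaling, no filter, DESeq2 1.42.0, limma 3.58.1 on the log2 table, wider fits, a replicate block and leaving out each library. The scripts were tested on simulated data.

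Named genes were a panel of 24, the 10 largest differences in each direction among genes at 1 CPM or more in each clone without overlap, up to 8 genes in each direction read at 5 CPM or more in one clone and under 0.1 CPM in every library of the other, the 10 most abundant at least 2-fold apart and up to 4 called members per list. Other named genes were picked after their values were seen. The members, the 32 gene lists and the 9 marker lists were chosen with earlier results of these data known, and 2 lists were added after the data were seen. The shRNA sequences were not used here. A few genes that these rules name are not reported here.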

Additional observations from a re-analysis of the deposited data

Results flagged for a closer look

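The gap between the clones in ERN1, clone 1 minus clone 3, was 1.31 smaller in size on the log2 scale after 24 h of Dox than at 0 h by the test of the difference itself (adjusted p = 2.78e-09, edgeR). In the fit planned for 72 h, the same test gave 1.21 for ERN1 (adjusted p = 6.52e-14) and 0.44 for XBP1 (adjusted p = 2.75e-05). Both 72 h values rest on the libraries labelled clone 1, 72 h, which lie with clone 3 by the 10 genes that set the clones apart, and no direction is drawn from them.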

How the results depend on the processing

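At 0 h the count of 7339 of 15665 genes ran from 5744 (without clone 1 replicate 2) to 8221 (24 shIRE1 libraries in the fit). It was 6345 by DESeq2, 7279 by limma and 5744 to 7681 without single libraries. Of the 8976 genes with a mean of at least 10 CPM, a limit chosen after seeing the data, 5140 were called. The 901 genes at least 2-fold apart ran from 811 by DESeq2 to 1294 with no filter. After 24 h the count of 220 moved to 1421 with 24 libraries in the fit, to 1789 with a replicate block, and ranged from 64 to 4691 without single libraries, the highest without clone 3 replicate 1. After 72 h, where library labels are in doubt, 2914 genes ranged from 1287 to 6141. The looser limits for genes read in 1 clone gave 1 gene, and both alternatives for gene position gave 0 stretches. Same-numbered libraries of the clones correlated in their deviations at 0.139, -0.041 and 0.435 over 11871 genes. The value of 0.435, for replicate 3, was the highest, but clone 1 replicate 1 correlated best with clone 3 replicate 2 (0.22). With 3 libraries a clone these values cannot settle whether the numbers mark a pairing. A fit with the number as a block called 7737 genes at 0 h. Over 2223 pairs of a named gene and an alternative, 0 reversed, 50 lost the call (in 11 genes) and 8 gained it (ATF6, SDC1 and IER2). DESeq2 called 1 protocadherin gene lower in clone 1 in place of 2. The causes were not tested. Counts near 1 CPM limit the low genes.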

Other observations

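Genes not named above also differed between the untreated clones, and whether they belong to the programmes described above was not tested. KIF21B, a kinesin that slows microtubule growth, was at 93.9 CPM in clone 1 and 275 CPM in clone 3 (log2 difference -1.56, adjusted p = 4.96e-07, edgeR). MGAT3, which adds the bisecting sugar of N-glycans, was at 109 and 256 CPM (-1.24, adjusted p = 1.04e-07), and PCK2, the mitochondrial phosphoenolpyruvate carboxykinase, at 55.1 and 199 CPM (-1.86, adjusted p = 7.73e-09). SORL1, a sorting receptor of endosomes, was higher in clone 1 at 39.8 and 16 CPM (1.30, adjusted p = 4.09e-06). All 4 were picked after their values were seen, from genes also called at 24 h in the same direction.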
